A study of Mus musculus with 2 samples.

Results

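The genes Cd3g, Cd3d and Cd3e encode the CD3 gamma, delta and epsilon chains of the T cell receptor complex, and in the mouse they lie side by side on chromosome 9. The locus described here is 120 kb of chromosome 9 in mm9, from 44.74 to 44.86 Mb, cut into 120 bins of 1 kb out of 2246042 covered bins in the genome. It is defined by gene position, with Cd3g near 44.78 Mb, Cd3d near 44.79 Mb and Cd3e at about 44.807 to 44.818 Mb. No measured value enters this definition, but earlier results of these data were known when it was chosen. The gene positions are approximate, because no mm9 gene annotation was used here.

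The series holds 2 chromatin immunoprecipitation libraries from Th2 cells, a helper T cell type that makes interleukin 4. The labels' protocols describe C57BL/6 spleen cells bearing CD4 and CD62L that were stimulated by antibodies to CD3 and CD28 over 5 days. IL-4 (10 ng/ml) and anti-interferon gamma (2 µg/ml) were present, and a rest of 3 days followed. One library was precipitated with an antibody to acetylated lysines of histone H3 (H3KAc), and the other with non-specific rabbit IgG as the background. The genotype, culture and treatment were shared by both, and 1 library per group means that no difference below has a replicate check or a p-value. No RNA was measured, so the Th2 label was not checked against transcripts.

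Each CD3 chain has a single immunoglobulin-like domain outside the cell and a cytoplasmic tail with an immunoreceptor tyrosine-based activation motif (ITAM). CD3 epsilon pairs with CD3 gamma or CD3 delta, and the pairs assemble with the T cell receptor chains and the zeta chain, encoded by Cd247 on another chromosome. When the receptor binds its ligand, the kinase Lck phosphorylates the ITAMs and the kinase ZAP-70 docks there. Acetylation of histone H3 is a mark of active promoters and enhancers, and the CD3 genes are known for their expression throughout the T cell lineage. The anti-CD3 antibody used to stimulate these cells in culture binds the complex that these genes encode.

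The promoters of the 3 genes are shown as the regulatory sequences of the locus; which bins hold them was not determined. The sequences are the RefSeq entries of GRCm38.p6, from 250 bases before to 50 bases after the start of transcription, and all 3 genes were matched by symbol. Their coordinates are chr9:44980382-44980681 on the minus strand for Cd3g, chr9:44981536-44981835 on the plus strand for Cd3d and chr9:45009562-45009861 on the minus strand for Cd3e. These are of another build than the reads, and no position was carried from one build to the other. Capitals mark GGAA on either strand, the core letters bound by ETS factors, and CANNTG, the E box bound by basic helix-loop-helix factors, and the matches can overlap.
Cd3g: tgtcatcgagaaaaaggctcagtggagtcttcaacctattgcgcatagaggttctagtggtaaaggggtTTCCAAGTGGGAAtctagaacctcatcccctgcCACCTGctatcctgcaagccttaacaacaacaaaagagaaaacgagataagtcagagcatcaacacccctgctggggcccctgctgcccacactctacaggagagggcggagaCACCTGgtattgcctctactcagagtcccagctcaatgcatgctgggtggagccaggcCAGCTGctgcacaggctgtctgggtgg
Cd3d: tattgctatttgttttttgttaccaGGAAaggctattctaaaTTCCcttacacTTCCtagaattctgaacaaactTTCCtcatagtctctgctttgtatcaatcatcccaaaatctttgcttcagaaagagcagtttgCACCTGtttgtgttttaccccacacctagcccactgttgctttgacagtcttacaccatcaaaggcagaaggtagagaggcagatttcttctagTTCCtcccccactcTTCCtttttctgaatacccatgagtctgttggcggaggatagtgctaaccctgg
Cd3e: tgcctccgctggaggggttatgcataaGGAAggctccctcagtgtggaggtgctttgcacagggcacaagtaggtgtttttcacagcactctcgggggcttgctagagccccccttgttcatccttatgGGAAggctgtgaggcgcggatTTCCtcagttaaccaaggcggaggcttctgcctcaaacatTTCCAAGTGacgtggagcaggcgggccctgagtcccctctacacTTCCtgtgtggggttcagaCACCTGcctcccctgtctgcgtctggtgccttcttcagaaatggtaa

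In that build the starts of Cd3g and Cd3d lie 1355 bp apart on opposite strands and point away from each other, and the start of Cd3e lies 27825 bp beyond that of Cd3d. GGAA was found 2 times in the Cd3g promoter, 6 times in that of Cd3d and 5 times in that of Cd3e, and 96.0% of the 32851 promoters of the table hold it at least 1 time. CANNTG was found 4, 1 and 2 times, respectively, against a share of 72.3% of all promoters with a match. The letters GATA occurred 2 times in the promoters of Cd3g and Cd3d and were not found in that of Cd3e, against 57.9% of all promoters. TATAAA, present in 13.6% of all promoters, and TGTGGT, present in 16.8% and bound by RUNX factors, were found on neither strand of any of the 3. GGGCGG, a GC box, was found 1 time, in the Cd3g promoter, and 35.7% of all promoters hold it. The 3 promoters differed in CG dinucleotides, with 4 in Cd3g, 1 in Cd3d and 8 in Cd3e, and 62.0%, 85.9% and 45.8% of all promoters had more. Their GC contents were 54.0%, 42.3% and 56.7%. A match is a description of letters and no measure of binding.

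Levels are in reads per 1000000 distinct positions (RPM). A position is a 5′ end on 1 strand, and further reads at it were left out, since no molecular identifier tells PCR copies from separate fragments. The H3KAc library held 19711169 distinct positions from 21845451 reads, and the IgG library 1897666 from 7626703, so that 1 position was worth 0.0507 RPM in H3KAc and 0.527 RPM in IgG. A bin without an IgG position allowed an IgG level of up to 1.58 RPM (3 counts, a 1-sided 95% limit). All intervals are 95% intervals, exact Poisson for levels and exact conditional binomial (Clopper-Pearson) for ratios, and cover counting error only.

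The CD3 genes lay in a part of the genome with more H3KAc than the average. Over the 120 kb, H3KAc had 2070 positions, or 0.875 RPM per kb (0.838 to 0.914), which was 1.97 times (1.88 to 2.05) the mean of covered bins. IgG had 95 positions, or 0.417 RPM per kb (0.338 to 0.510), and was 0.937 times (0.758 to 1.15) its own mean. The H3KAc over IgG ratio was 2.10 (1.71 to 2.60). Of 16605 windows of 120 kb tiled over all chromosomes but the mitochondrial one, 10.3% held more H3KAc positions and 42.7% more IgG positions. The corresponding shares among 903 windows of chromosome 9 were 10.6% and 48.9%.

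**Figure D1:**
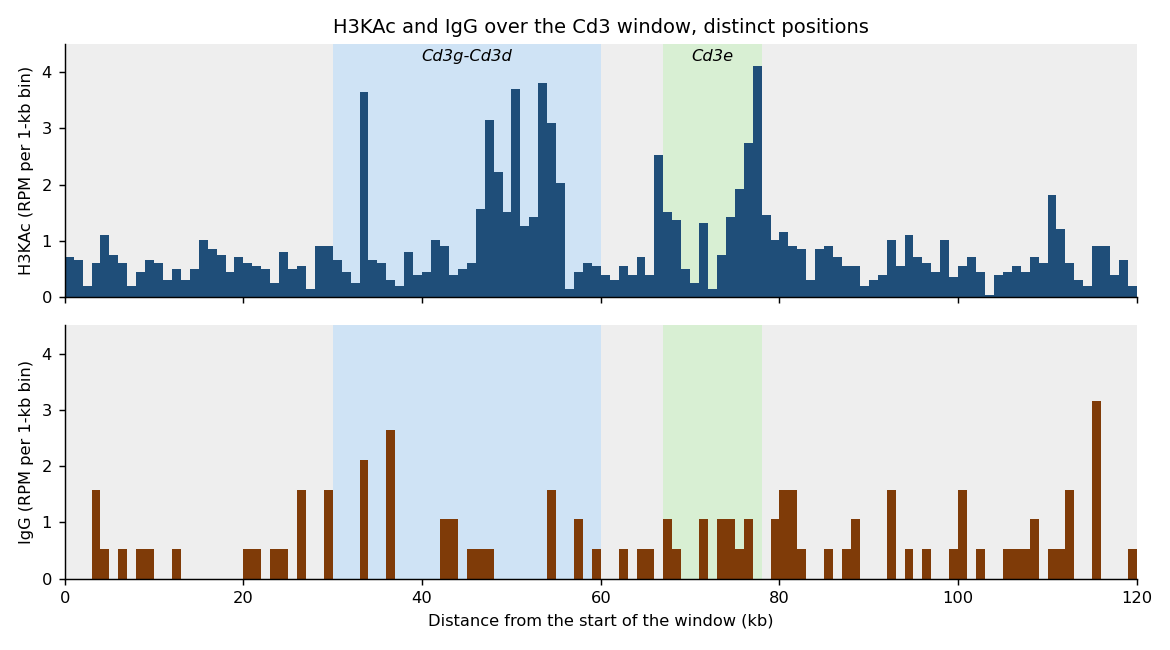
H3KAc (upper) and IgG (lower) in RPM per 1-kb bin of distinct positions, against the distance in kb from the start of the 120-kb window, with the Cd3g-Cd3d segment shaded blue, the Cd3e segment green and the other segments grey. H3KAc rises in a 10-kb block of the Cd3g-Cd3d segment, in a single bin of the same segment nearer the start of the window, and near both ends of the Cd3e segment, where the highest bin reaches 4.11 RPM; IgG bins hold 0 to 6 positions.

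The window was divided at the approximate gene positions into 5 segments. The 30 kb around Cd3g and Cd3d had 739 H3KAc positions, or 1.25 RPM per kb (1.16 to 1.34), and the 11 kb of Cd3e had 317, or 1.46 RPM per kb (1.30 to 1.63). These were 2.81 times (2.61 to 3.02) and 3.28 times (2.93 to 3.67) the genome mean. The flanks were lower, with 0.594 RPM per kb (0.533 to 0.659) in the 30 kb on the Cd3g side and 0.674 (0.619 to 0.732) in the 42 kb on the Cd3e side. Per kb, H3KAc was 1.95 times (1.77 to 2.15) as high in the Cd3g-Cd3d segment as in both flanks together and 2.28 times (2.00 to 2.60) as high in the Cd3e segment. The same comparison in IgG gave 0.910 (0.530 to 1.51) and 1.35 (0.662 to 2.55), so an excess of IgG over the flanks was not detectable at this depth in either gene segment.

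The Cd3e segment was a little higher per kb than the Cd3g-Cd3d segment in H3KAc, by 1.17 times (1.02 to 1.34), and the same ratio in IgG was 1.49 (0.671 to 3.14). The segments are 11 and 30 kb wide, and the interval does not cover the choice of their edges. The 7 kb between Cd3d and Cd3e had 105 H3KAc positions, or 0.761 RPM per kb (0.622 to 0.921), 1.19 times (0.961 to 1.46) the flanks. Of these 105 positions, 50 lay in the last bin, next to the Cd3e segment. With the segment edges moved 2 kb outwards, this bin joined the Cd3e segment and the level between the genes went from 1.71 to 1.25 times the genome mean. Among windows of 30 kb over the genome, 2.98% of 67061 held more H3KAc positions than the Cd3g-Cd3d segment, and among windows of 11 kb, 2.12% of 184815 held more than the Cd3e segment. More IgG positions were found in 43.3% and 26.5% of the same windows.

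Over IgG, the ratio was 3.23 (2.12 to 5.19) in the Cd3g-Cd3d segment, from 22 IgG positions, and 2.54 (1.44 to 4.97) in the Cd3e segment, from 12. It was 3.37 (1.12 to 16.6) between Cd3d and Cd3e, where IgG had 3 positions. In the flanks it was 1.88 (1.17 to 3.21) on the Cd3g side, from 18 IgG positions, and 1.34 (0.974 to 1.90) on the Cd3e side, from 40. The interval of the Cd3g-Cd3d segment lay above that of the flank on the Cd3e side, and all other pairs of segments had overlapping intervals, so no further order can be read from these ratios.

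Repeated reads in IgG were most frequent in the Cd3e segment. The 12 IgG positions there carried 108 reads, or 9 per position, against 4.02 over the whole IgG library, while H3KAc carried 1.09 reads per position. With every deposited read counted, the Cd3e ratio was 1.12 (0.896 to 1.40), and its interval then included 1. The origin of the repeated reads was not tested. In the other segments, IgG carried 3.06 to 4.95 reads per position, and all of their ratios lay inside the intervals given above when every read was counted.

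**Figure D2:**
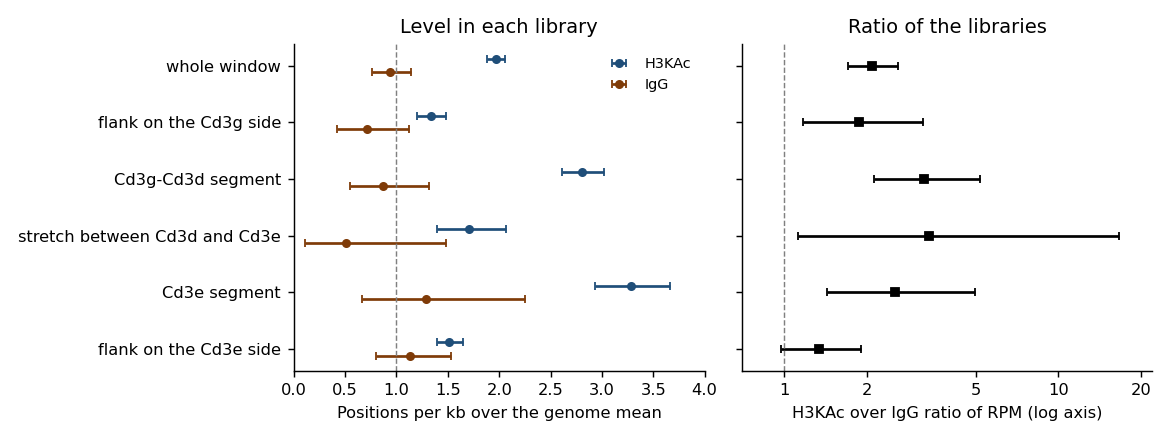
Left, distinct positions per kb divided by the mean per covered kb of the same library, for H3KAc and IgG in the whole window and its 5 segments; right, the H3KAc over IgG ratio of RPM on a log axis. Bars are exact 95% intervals for counting error and dashed lines mark 1; both gene segments stand above both flanks in H3KAc, with levels of 2.81 and 3.28 against 1.33 and 1.51, whereas the IgG intervals of all 5 segments include 1.

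Single bins were ranked against all covered bins of the genome. A bin was in the top 1% with at least 46 H3KAc positions and in the top 5% with at least 24, and ties made these classes 1.02% and 5.57% of covered bins. The window held 8 top 1% bins of 120 (6.67%) and 22 top 5% bins (18.3%). Of the top 5% bins, 11 lay in the Cd3g-Cd3d segment, 7 in the 11 bins of the Cd3e segment, 1 between Cd3d and Cd3e, 3 on the Cd3e side and none on the Cd3g side. No bin of the window reached the top 0.1% (at least 130 positions; 0.1% of bins). The bins of the Cd3g-Cd3d segment had 3 to 75 positions with a median of 13, and those of the Cd3e segment 3 to 81 with a median of 27. The medians of the flanks were 12 each, against 6 over all covered bins, so the typical bin near Cd3g and Cd3d was like a flanking bin and the excess lay in few bins.

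The widest block of high H3KAc counts included the position given for Cd3d, near 44.79 Mb, and lay above that given for Cd3g. Both positions are approximate. In GRCm38.p6 the starts of the 2 genes lie only 1355 bp apart, and Cd3g is transcribed towards lower coordinates. Whether the block holds either start or both was not determined. From 44786001 to 44796000 all 10 bins were in the top 5%, with 31, 62, 44, 30, 73, 25, 28, 75, 61 and 40 H3KAc positions in order along the chromosome. Together they had 469 positions, or 2.38 RPM per kb (2.17 to 2.60), and 5 IgG positions, with 7 of the 10 bins empty in IgG. The ratio was 9.03 (3.84 to 27.9), but the block was picked for its H3KAc, which raises its ratio. The bins next to it had 12 positions on the lower side and 3 on the upper side. Both are below the 24 of the top 5% by the way the block was picked. The block held 63.5% of the H3KAc positions of the Cd3g-Cd3d segment in 33.3% of the segment's bins.

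Blocks of this width were uncommon but not rare. By the same rule, with top 5% bins joined over a gap of at most 1 bin, the nuclear chromosomes had 61463 stretches with a median width of 1 kb, of which 1608 (2.62%) were 10 kb or wider. Counting only unbroken runs of top 5% bins, 417 of 76153 (0.548%) were 10 kb or longer. The 10-kb block was an unbroken run.

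Within the block, H3KAc counts were uneven on the scale of 100 bp. Its 100-bp maximum was 16 positions, found at 44787901 to 44788000 and again at 44794201 to 44794300. A second peak pair lay in the bin from 44790001, with 12 positions in each of its first pair of 100-bp pieces and 13 and 14 in its last pair. Between these peaks lay the emptiest 400 bp of the block, from 44788801 to 44789200, with 2 positions against a mean of 18.8 per 400 bp. Mappability was not measured, and the part of unmappable sequence in such gaps was not tested. From 44793001 to 44795000 the signal was broader, with 75 and 61 positions in adjoining bins, and the last 400 bp of the block held 9 positions against 2 in the first 400 bp after it.

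The other top 1% bin of the Cd3g-Cd3d segment stood by itself at 44773001 to 44774000, 12 kb before the block. It had 72 H3KAc positions (3.65 RPM, 2.86 to 4.60), and 54.2% of them lay in 200 bp, from 44773401 to 44773600. This 200 bp contained the 2 highest 100-bp counts of the window, 20 and 19 positions. The bin also had 4 IgG positions, and its ratio was 1.73 (0.648 to 6.53), so a difference from IgG of the same bin was not detectable at this depth. Over IgG in the 11 bins centred on it, the ratio was 6.35 (3.42 to 12.9), so the result depended on the background used. In the order of the GRCm38.p6 gene table, the protein-coding neighbours are Ube4a, which encodes a ubiquitin ligase, before Cd3g and Mpzl2, an adhesion molecule gene, after Cd3e. Which gene this bin belongs to was not analysed here. The 19 remaining bins of the segment had 10.4 positions per kb (9.02 to 11.98), or 0.529 RPM per kb (0.458 to 0.608), at or below the levels of the flanks. The top 5% bins were taken out of the segment but not out of the flanks. These bins are therefore low by that choice, and the comparison is a description only.

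H3KAc near Cd3e lay in 2 stretches of top 5% bins, near either end of its interval, and in a single top 5% bin between them. At the upper end, given as near 44.818 Mb, the bins from 44814001 to 44819000 had 28, 38, 54, 81 and 29 H3KAc positions in order along the chromosome, and the bin with 81 was the highest of the whole window. Together these 5 bins had 2.33 RPM per kb (2.04 to 2.66) and 5 IgG positions, a ratio of 4.43 (1.87 to 13.8). At the lower end, the bins from 44806001 to 44809000, the first of which lies just outside the Cd3e segment, had 50, 30 and 27 positions, or 1.81 RPM per kb (1.48 to 2.19), and 3 IgG positions, a ratio of 3.43 (1.14 to 16.9). Both ratios and their bounds are raised by the choice of stretches for high H3KAc. The 5 bins between these stretches had 10, 5, 26, 3 and 15 positions, together 0.599 RPM per kb (0.456 to 0.772), and 4 IgG positions. The bin with 26, from 44811001, was in the top 5%. The middle part is lower in H3KAc than the ends by the way the stretches were picked, and the difference is a description only. The RefSeq promoter of Cd3e is on the minus strand, so its start is the end with the higher coordinate.

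**Figure D3:**
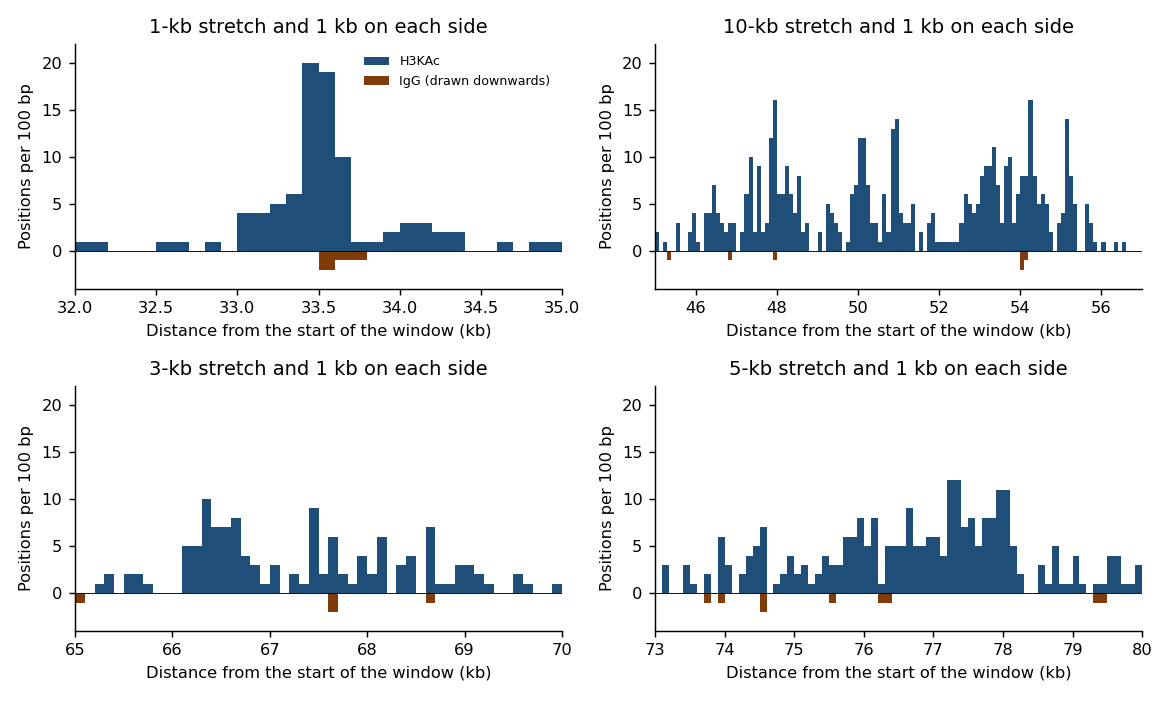
Distinct H3KAc positions per 100 bp (upwards) and IgG positions (downwards) in the 4 stretches described in the text, each with 1 kb on either side, against the distance in kb from the start of the window. The 1-kb stretch has a single narrow peak of 20 positions, the 10-kb stretch has several peaks of up to 16 with an almost empty gap 48.8 to 49.2 kb from the start of the window, and the 5-kb stretch climbs towards 77 to 78 kb.

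The highest bin of the window, the 1 kb from 44817001 at the upper end of Cd3e, was the only one called enriched over IgG. The rule needs at least 5 positions in both libraries together and a lower bound of the ratio above 2, and it called 1 of 111 tested bins here (0.901%) against 0.0836% of 1409765 tested bins in the genome. This bin had 81 H3KAc positions, or 4.11 RPM (3.26 to 5.11), and no IgG position, and the lower bound of its ratio was 2.07. Only 0.382% of covered bins had as many H3KAc positions. With IgG scaled by 10-kb background bins, with 500-bp bins or with plus-strand or minus-strand reads alone, no bin of the window was called. The genome then had 955, 638, 127 and 128 called bins, respectively, against 1178 by the main rule. With every deposited read, 10 of 112 were called (8.93%), against 2.64% of bins in the genome.

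The next bins by H3KAc missed that rule by little, because a bin without IgG needs many H3KAc positions to pass it. The bin from 44793001 had 75 H3KAc positions and no IgG position, with a lower bound of 1.91, and the bin from 44790001 had 73 and none, with a lower bound of 1.86. Lower bounds above 1 were found in 6 bins (5.41%, against 0.651% of tested bins in the genome), namely those 3 and the bins from 44806001, 44788001 and 44787001, with bounds of 1.26, 1.10 and 1.03. Of these 6 bins, 4 lay in the Cd3g-Cd3d segment, 1 in the Cd3e segment and 1 just below it. When the background was taken as IgG over 11 bins around the bin in question, which gives it more counts, 13 of 120 bins passed a lower bound of 2 (10.8%, against 1.54% of the bins tested this way). Of these, 10 lay in the Cd3g-Cd3d segment, 9 of them in the 10-kb block and the other at 44773001. The Cd3e segment, the stretch between the genes and the flank on the Cd3g side had 1 each.

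The strands were counted separately in the 10 bins with the most H3KAc, which is a check on counting within 1 library and not a replicate. The Cd3e bin with 81 positions had 41 on the plus strand and 40 on the minus strand, and the bins from 44793001 and 44790001 had 37 and 38, and 38 and 35. The strands were less even in the bin from 44816001, with 37 and 17, and in that from 44787001, with 22 and 40, and those from 44788001 and 44795001 had 26 and 18, and 16 and 24. Repeated reads were few in H3KAc, where the 81 positions came from 85 reads and the 75 from 89. Every one of the 10 bins lay in the 10-kb block, in the stretches near the ends of Cd3e or in the isolated bin at 44773001, and they had 40 to 81 positions.

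IgG in the bins of the CD3 window with high H3KAc counts was lower than in other bins within the same range of H3KAc. The 22 top 5% bins of the window had 0.955 IgG positions per bin (0.591 to 1.46) with a median of 1, and 45.5% of them had none. The mean of all covered bins, 0.845, lay inside this interval, so IgG in these bins was not low against the genome. The 116798 other bins in the same range of H3KAc had 3.02 per bin (3.01 to 3.03) with a median of 3, and 14.9% of them had none. The pooled H3KAc over IgG ratio was 4.42 (2.88 to 7.17) in the window and 1.07 (1.066 to 1.073) elsewhere. For the 8 top 1% bins, it was 5.08 (2.74 to 10.7) against 1.88 (1.86 to 1.90) in 11236 other bins of the same range. The range was matched but not the distribution, and the window's top 5% bins averaged 43.8 H3KAc positions against 33.6 elsewhere. All of these bins were picked for high H3KAc, which raises their ratios. In the window the ratios rest on 21 IgG positions for the top 5% bins and 10 for the top 1% bins. Neighbouring bins are not independent, and the intervals do not cover how IgG varies from place to place.

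**Figure D4:**
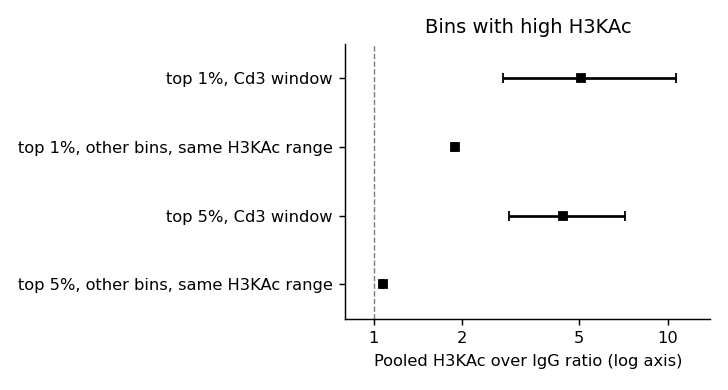
Pooled H3KAc over IgG ratio on a log axis for the top 1% and top 5% bins of the Cd3 window and for all other bins of the genome in the same range of H3KAc positions. All bins shown were picked for high H3KAc, which raises their ratios. Squares are ratios of summed positions scaled to library totals and bars are 95% intervals for counting error, narrower than the symbol for the bins outside the window; the ratios are 5.08 against 1.88 and 4.42 against 1.07.

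IgG counts of single bins were small, and at this depth they could not show whether IgG formed a block over the CD3 genes. Summed over 11 bins, IgG was highest around the bin from 44816001, near the upper end of Cd3e, with 17 positions. Around the bins of the 10-kb block these sums were 5 to 7. Of the 120 bins, 66 (55.0%) had no IgG position, against 60.5% of all covered bins, and the highest IgG bin, from 44855001 to 44856000 in the flank beyond Cd3e, had 6 positions and a ratio of 0.289 (0.110 to 0.889). The second, from 44776001 to 44777000, had 5 IgG and 6 H3KAc positions and a ratio of 0.116 (0.0294 to 0.478). It was the only bin of the window with an upper bound below 0.5, or 0.901% of its tested bins, against 0.629% in the genome. The isolated H3KAc bin at 44773001 followed with 4, and 9 bins tied at 3. Among those with 3 only the bin from 44794001 was in the top 5% of H3KAc, with 61 positions.

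On the flank of the Cd3g side, the bins had 3 to 22 H3KAc positions, and none reached the top 5%. On the Cd3e side they had 1 to 36, and 3 reached the top 5%, the bin with 29 positions that adjoins the Cd3e segment and 2 further out. The latter formed a stretch from 44850001 to 44852000 that had 60 positions, or 1.52 RPM per kb, and 2 IgG positions, a ratio of 2.89 (0.766 to 24.4). This stretch lay 31 kb beyond the end of the Cd3e stretch, and a difference from IgG was not detectable there.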

How the data were processed

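Per the labels' protocols, chromatin of Th2 cells was crosslinked in 0.4% formaldehyde, sonicated, precipitated with 7 µg of antibody and sequenced as single reads from fragments of about 200 bp. Per the submitters' processing notes, the authors aligned reads with Bowtie to mm9; no version, filter or treatment of repeated alignments is given in these sources. The deposited files give 1 row per aligned 35-base read, and hold no signal or score of the authors. All counts were computed here from these deposited positions.

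Distinct 5′ ends were moved 100 bp along their strand, counted in 1-kb bins and scaled to 1000000 positions per library. Groups came from the antibody labels. The bins named are those called enriched, the 10 highest in H3KAc, the 5 highest in IgG (with ties) and the stretches of top bins; others were named after their values were seen. The window, the segments and the rules were chosen with earlier results of these data known. Alternatives were all reads, reads not moved, IgG scaled by 10-kb background bins, thinned H3KAc, 1 strand, other thresholds, 500-bp bins, IgG over 11 bins and segment edges moved 2 kb. The calling was tested on simulated data. The software was Python 3.11.15 with scipy 1.17.1, numpy 2.4.6, matplotlib 3.10.9 and pandas 2.3.3.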

Additional observations from a re-analysis of the deposited data

How the results depend on the processing

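Of the 41 alternative values of segment ratios, 40 stayed inside the 95% interval of the value reported; the exception was the Cd3e segment, at 1.12 with all reads as deposited. The number of enriched bins in the window, 1, became 10 with all reads, 6 with a lower bound above 1 and 13 with IgG over 11 bins, while the genome count of 1178 became 39577, 9177 and 30357. The window count became 0 with IgG scaled by background bins, with plus-strand or minus-strand reads alone, with a lower bound above 4 and with 500-bp bins. The genome counts were then 955, 127, 128, 27 and 638, respectively, so few bins were called anywhere. The window count stayed at 1 with reads not moved and with thinned H3KAc, where the genome counts were 1206 and 943. The 8 top 1% bins (6.67%, against 1.02% of covered bins) became 22 with the top 5% (18.3%, against 5.57%). With the top 0.1% they became 0, against 0.1% of covered bins. They became 2 with thinned H3KAc and 14 with 500-bp bins, of which the window holds more. Genome shares are not given for these settings, so their counts cannot be compared with the 8.

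H3KAc levels over the genome mean were lower with fewer reads. With H3KAc thinned to the IgG number, they were 1.22 in the whole window, 0.740 on the Cd3g side, 1.70 in the Cd3g-Cd3d segment, 0.740 between Cd3d and Cd3e, 2.15 in Cd3e and 1.04 on the Cd3e side; both values of 0.740 lie on the other side of 1. Plus-strand reads gave 1.77 in the whole window, 2.40 in the Cd3g-Cd3d segment and 1.38 on the Cd3e side. Minus-strand reads gave 1.76 in the whole window, 1.14 on the Cd3g side, 2.88 in Cd3e and 1.34 on the Cd3e side. Fewer reads cover fewer bins, which raises the mean per covered bin. With the mean over the bins covered by all positions, an alternative chosen after seeing the data, all levels of either strand stayed inside their intervals, as did thinned levels of the window and of both gene segments. Thinned levels were then 1.18 on the Cd3g side, 1.18 between Cd3d and Cd3e and 1.66 on the Cd3e side. With segment edges moved 2 kb outwards, the level between Cd3d and Cd3e was 1.25.

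The depth of IgG, a mean of 0.845 positions per bin, limits every ratio of a single bin. No paired analysis was possible because each group has 1 library.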
